A study of Rattus norvegicus with 15 samples.

Results

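Transforming growth factor beta (TGF-beta) ligands, receptors and signal transducers were followed in the posterior cerebral artery of the rat by array hybridisation. The members were all probe sets whose platform gene symbol is Tgfb1, Tgfb2, Tgfb3, Tgfbr1, Tgfbr2, Tgfbr3, Ltbp1, Smad2, Smad3 or Smad7. This rule gave 15 probe sets for 9 of the 10 genes, of 15866 probe sets that were not array controls. The type II receptor Tgfbr2 had no probe set under that symbol and was not analysed here. All 15 probe sets reached a signal of 100 on at least 3 arrays and were tested.

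The study asked how this artery responds early when it becomes a collateral supply to the brain. All animals were Sprague Dawley rats aged 7 weeks and weighing 300 to 350 g. In 3-vessel occlusion (3VO) both vertebral arteries were electrocoagulated and the left common carotid artery was ligated. In sham surgery the same vessels were laid open and left untouched. Both kinds of surgery were done under isoflurane with buprenorphine, and arteries were taken after 24 h or 3 d, on the side of the carotid ligation per the labels. Intact rats, at 0 h, had no surgery. Vessels were filled with latex under papaverine, a vasodilator, before the artery was cut out, and arteries of 8 rats were pooled for each array. Each of the 5 groups has 3 arrays. The labels also speak of repeated hybridisation, so the p-values measure the spread between arrays, which may be technical in part. On 1 of the sham arrays at 3 d, called replicate 1 here, the treatment text describes the occlusion although title and source name give sham. Differences of the members between the sham group at 3 d and another group are therefore also given without this array. This holds where the groups were separated or the unadjusted p was under 0.05. The titles number the arrays, and the intact arrays hold numbers 13 to 15, after all arrays of operated rats.

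TGF-beta ligands are secreted bound to their own propeptide, and latent TGF-beta binding proteins such as Ltbp1 tether this latent form to the matrix. Once released, the ligand binds the type II receptor, which activates the type I receptor Tgfbr1, while the coreceptor betaglycan (Tgfbr3) presents ligand, Tgfb2 above all. The activated type I receptor phosphorylates Smad2 and Smad3, which enter the nucleus with Smad4, and Smad7 is an inhibitor that these Smads induce. In arteries the pathway is known for driving matrix synthesis and the contractile state of smooth muscle, and its receptors are mutated in inherited aneurysm disease.

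The 15 arrays had a trimmed mean signal of 5000 each and medians between 2553 and 2938. Smooth muscle markers were bright in every group, with a Myh11 signal of 43606 or more on every array. The tissue was not pure artery. Snap25, a neuronal gene, reached a mean signal of 77407 in intact arteries and 20144 in sham arteries at 24 h. The mean log2 signal of 10 neuron markers lay between 12.59 and 13.91 on intact arrays and between 11.81 and 12.80 on sham arrays at 24 h. Intact array 2 and sham array 3 at 3 d carried the most choroid plexus RNA by the mean of 6 markers. In bulk tissue of this kind, fewer cells of a type and less RNA per cell cannot be told apart.

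None of the 15 probe sets passed the threshold, an adjusted p under 0.05 in limma, in any of the 7 comparisons or in the F test across the 5 groups. The pattern that recurred was a higher signal after surgery of either kind than in intact arteries. In group means it was seen for the ligand Tgfb1, the brighter probe set of the coreceptor Tgfbr3 and the dimmer one of the receptor Tgfbr1. Only that Tgfbr3 probe set had every operated group wholly above intact. For Tgfb1 the sham group at 3 d overlapped intact, and for the dimmer Tgfbr1 probe set both sham groups did. The other Tgfbr3 probe set did not repeat the pattern, and the other Tgfbr1 probe set differed less. The ligand Tgfb3 had another pattern: it was lower after 3VO than after sham surgery at both times. All differences below are differences of group means of log2(signal + 16) with their standard error (SE), and levels are linear array signals.

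Between 3VO and sham at 24 h, 3 probe sets were higher and 12 lower, with a median difference of -0.16 against -0.018 over all probe sets. The number that passed over all probe sets was 8 of 15737 (0.0508%), and 1 member had an unadjusted p under 0.05, as had 6.97% of all probe sets. One member was separated downward, in that all its 3VO arrays lay below all its sham arrays, as did 9% of all probe sets. None was separated upward, where 6.42% of all probe sets were. At 3 d, 7 members were higher and 8 lower after 3VO, and no probe set of the array passed (0%). Unadjusted p-values under 0.05 came from 3 members and from 4.73% of all probe sets. At 3 d 2 members were separated upward and 1 downward, where 4.34% and 4.75% of all probe sets were. The difference between the occlusion effects at the 2 times passed in no probe set (0%), and an unadjusted p under 0.05 was found in 1 member and in 2.78% of all probe sets.

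Against intact arteries more members were higher than lower. After sham surgery 13 of 15 were higher at 24 h and 13 of 15 at 3 d, while 54.2% and 58.8% of all probe sets were. After 3VO 12 were higher at 24 h and 11 at 3 d, where 50.6% and 57% of all probe sets were. The 4 comparisons share the 3 intact arrays, so their directions are not independent of each other. Marker lists differed in the same comparisons: in both sham groups all 10 neuron markers were lower than intact, and all 8 smooth muscle, 6 endothelial, 5 erythroid and 4 leptomeningeal markers were higher. Of 8 macrophage markers 8 were higher at 24 h and 6 at 3 d. Of 7 astrocyte markers 6 were lower at 24 h and 5 at 3 d. With the neuron list mean as a covariate, members with an unadjusted p under 0.05 numbered 1 in each sham group, against 5 at 24 h and 3 at 3 d without it. The share of all probe sets with this covariate was not counted. The neuron list itself differed between sham and intact, so the lower count cannot be read as particular to the members. All sham arrays lay above all intact arrays in 5 members at 24 h (9.96% of all probe sets) and in 3 at 3 d (9.86%), and no member was wholly below (7.41% and 5.34%). After 3VO 4 members were wholly above at 24 h (7.59%) and none wholly below (6.19%). At 3 d 7 were wholly above (10.3%) and 1 wholly below (5.11%). Unadjusted p-values under 0.05 were found in 5, 3, 3 and 5 members in the order sham 24 h, sham 3 d, 3VO 24 h and 3VO 3 d, beside 15%, 14.2%, 9.96% and 12.9% of all probe sets. Adjusted p-values under 0.05 were found over all probe sets in 0%, 0%, 0.184% and 0.222%. The F test passed in 12 probe sets (0.0763%), none a member, and its unadjusted p was under 0.05 in 4 members and in 12.1% of all probe sets. The number that passed between sham at 24 h and intact depended on intact array 3. Without this array 818 probe sets passed, Tgfb1 and Tgfbr3 among them, against 0 on all arrays.

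**Figure D1:**
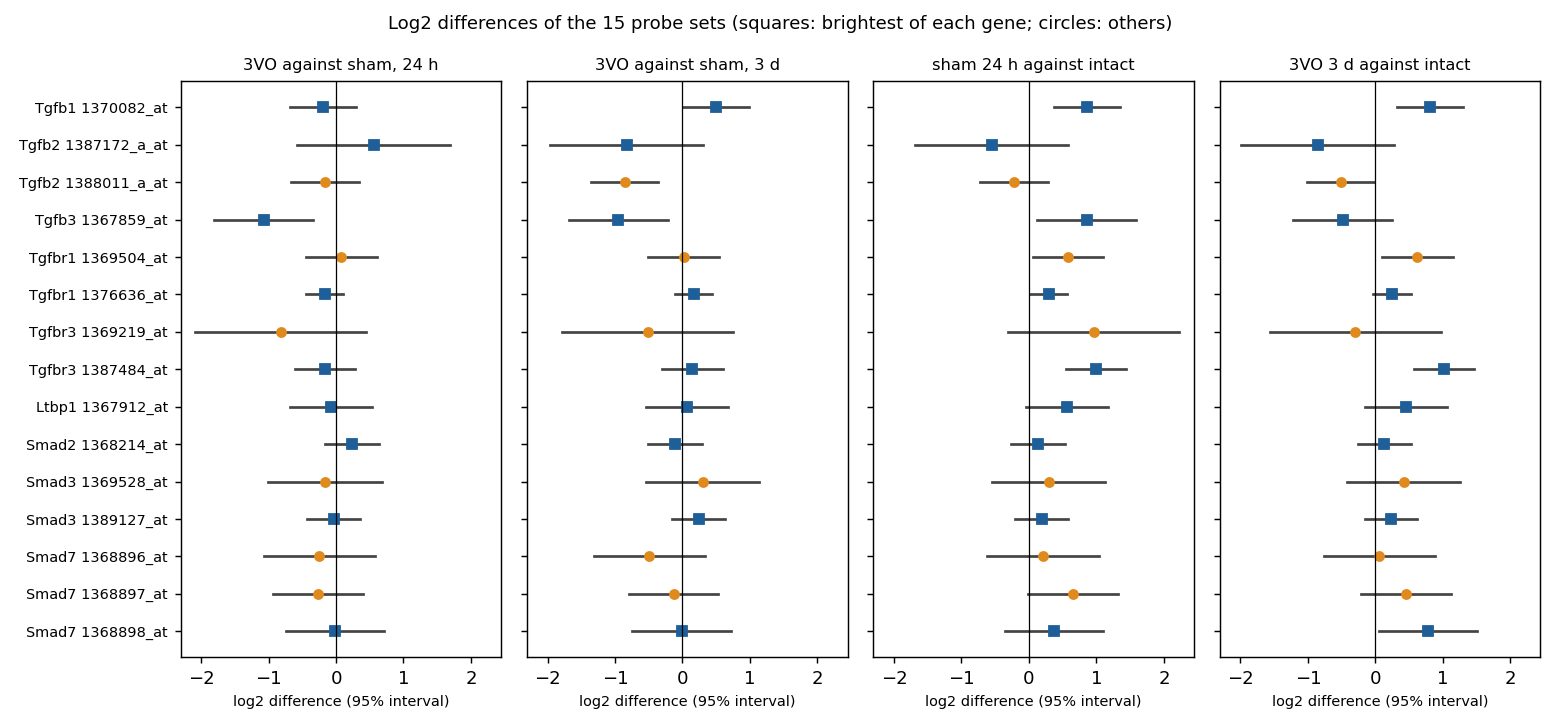
Log2 differences with 95% intervals for the 15 probe sets in 4 of the comparisons, with squares for the brightest probe set of a gene and circles for the others. Tgfb3 lies left of 0 in both occlusion panels (-1.07 and -0.95), and Tgfbr3 1387484_at lies near 1 in both panels against intact (0.996 and 1.01).

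Tgfb1, the ligand that platelets and macrophages also store or secrete, had signals of 2238, 3381 and 3793 on the intact arrays. Sham arrays at 24 h gave 6031, 4988 and 5720, and 3VO arrays at 24 h gave 4204, 6375 and 4271. At 3 d the sham arrays gave 2978, 4332 and 4238 and the 3VO arrays 4514, 5770 and 5958. All arrays of both 24 h groups and of the 3VO group at 3 d thus lay above all intact arrays, and only the sham group at 3 d overlapped them. Against intact arteries the differences were 0.86 (SE 0.23, limma adjusted p = 0.135) for sham at 24 h, 0.66 (adjusted p = 0.34) for 3VO at 24 h and 0.81 (adjusted p = 0.169) for 3VO at 3 d. For 3VO at 24 h the difference was 0.44 without intact array 1, the lowest, and 1.01 with the array number as a covariate. At 3 d the lowest 3VO array lay just above the highest sham array, and the difference was 0.50 (SE 0.23, adjusted p = 0.999). Without sham array 1 at 3 d, the array with the conflicting text, this difference was 0.33. At 24 h the 3VO and sham arrays overlapped, and the 3VO mean was the lower of the pair (-0.20, SE 0.23, adjusted p = 0.916). The occlusion effect at 3 d exceeded that at 24 h by 0.70 (SE 0.32, adjusted p = 0.999), which did not pass, and by 0.52 without sham array 1 at 3 d.

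Macrophage markers were high in the same groups as Tgfb1 in part only. At 24 h they were higher after 3VO than after sham surgery, where Tgfb1 was lower, and at 3 d both were higher after 3VO. Their mean log2 signal lay between 13.84 and 14.29 on the 3VO arrays at 24 h, against 13.35 to 13.82 on the sham arrays. At 3 d it lay between 13.67 and 13.91 after 3VO and between 13.19 and 13.34 after sham surgery, and on intact arrays between 12.77 and 13.65. All 8 measured macrophage markers were higher after 3VO than after sham surgery at each time, and 2 of them passed between 3VO at 24 h and intact. Over the 15 arrays the Tgfb1 signal correlated with this list at r = 0.71 (Spearman's rho = 0.63), and at r = 0.53 after group means were removed. The macrophage list mean was added as a covariate after the data were seen. With this covariate the difference between 3VO and sham at 3 d was 0.17 and those of 3VO from intact were 0.14 at 24 h and 0.41 at 3 d. The 4 platelet markers, by contrast, correlated with Tgfb1 at r = 0.22. The share of the Tgfb1 signal that comes from macrophages was not tested. With the neuron list mean as a covariate the differences from intact were 0.53 for sham at 24 h and 0.59 and 0.62 for 3VO at 24 h and 3 d.

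Within groups Tgfb1 also followed the smooth muscle markers, at r = 0.90 after group means were removed against r = 0.46 over all arrays. With the mean of the 8 smooth muscle markers as a covariate, Tgfb1 passed between 3VO and intact at both times, with differences of 0.84 at 24 h (adjusted p = 0.0338) and 0.87 at 3 d (adjusted p = 0.0298). This covariate was chosen after the data were seen, and the number of all probe sets that passed with it is not given here. With it the difference of sham at 24 h from intact was 0.49 (limma adjusted p = 0.494), against 0.86. That of 3VO from sham at 3 d was 0.78 (adjusted p = 0.2865), against 0.50. The occlusion effect at 3 d then exceeded that at 24 h by 0.43, against 0.70.

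Tgfb3, a ligand known for its part in palate fusion and wound repair, had signals of 10391, 10955 and 9460 on the sham arrays at 24 h and of 4462, 5950 and 4319 on the 3VO arrays. Every 3VO array was below every sham array, and the means were 4910 ± 903 for the occlusion and 10268 ± 755 for the sham operation (SD over 3 arrays). The difference was -1.07 (SE 0.34, limma adjusted p = 0.517), which did not pass over all probe sets. When the 6 arrays of this comparison were fitted alone, it passed with an adjusted p of 0.047, together with 22 probe sets in all of 15359 tested. At 3 d the sham arrays gave 5203, 12505 and 7320 and the 3VO arrays 2432, 6178 and 4372. The groups overlapped there, and the difference was -0.95 (SE 0.34, adjusted p = 0.997). It was -0.59 without 3VO array 1, which has the lowest signal of all, -0.61 without sham array 2 and -1.24 without sham array 1. Intact arrays gave 4432, 4764 and 8579, within the range of both 3VO groups save for array 3. Sham arrays at 24 h were all above the intact arrays, with a difference of 0.86 (SE 0.34, adjusted p = 0.265). This difference was 0.26 with the smooth muscle list mean and 0.38 with the neuron list mean as a covariate.

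The contractile markers of smooth muscle moved with Tgfb3 array by array. Their mean log2 signal lay between 14.97 and 15.19 on sham arrays at 24 h and between 14.13 and 14.69 on 3VO arrays, and all 8 markers were lower after 3VO at both times. At 3 d the list lay between 14.45 and 15.22 after sham surgery and between 14.12 and 14.85 after 3VO, and on intact arrays between 14.02 and 15.01. Tgfb3 correlated with this list at r = 0.89 (rho = 0.92) over the 15 arrays, at r = 0.86 after group means were removed and at r = 0.90 without the 2 arrays farthest from the median of the list. With the list mean as a covariate the difference at 24 h was -0.21, and at 3 d it was -0.51. Other lists moved these differences too. The difference at 24 h was -0.71 with the neuron list mean, and that at 3 d was -1.46 with the macrophage list mean. The probe sets most like Tgfb3 over the array were those of Mustn1 (r = 0.95), a small muscle protein, and Tagln (r = 0.95), the smooth muscle protein transgelin, which is one of the 8 markers. Erythroid markers followed Tgfb3 as well (r = 0.77), and astrocyte (r = -0.65) and neuron markers (r = -0.56) ran against it. Of the 10 neuron markers, all 10 were higher after 3VO than after sham surgery at 24 h and 9 at 3 d. The part of each tissue in the Tgfb3 differences was not tested. No part of these correlations has a p-value, since the points share arrays and groups.

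**Figure D2:**
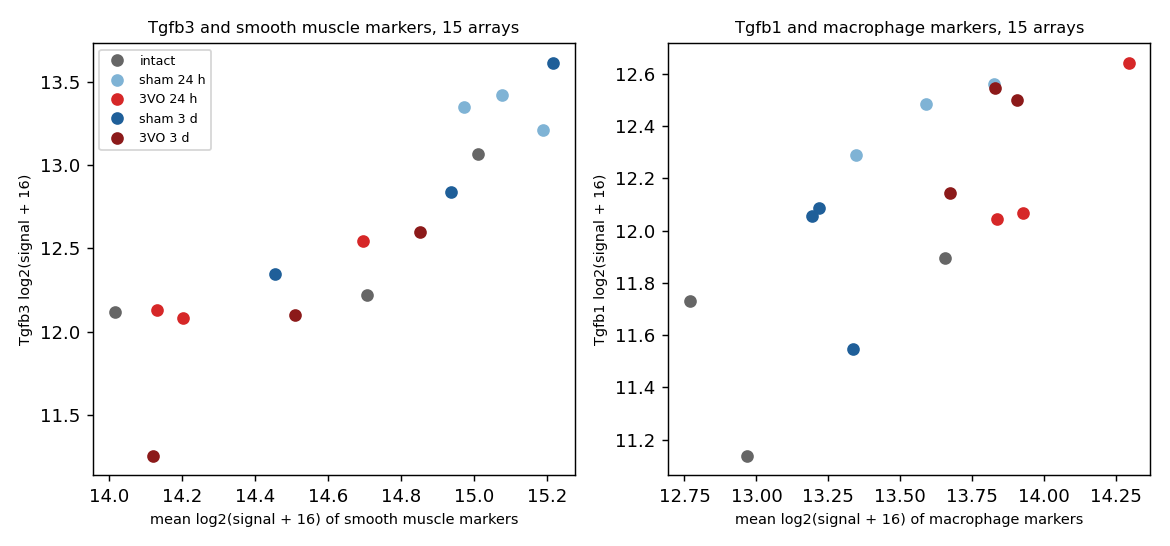
Each point is 1 of the 15 arrays, coloured by group, with the mean log2(signal + 16) of a marker list on the x axis and that of the ligand on the y axis. Tgfb3 climbs along the smooth muscle markers in and between groups (r = 0.89), and Tgfb1 follows the macrophage markers more loosely (r = 0.71).

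Tgfb2, the ligand that depends most on betaglycan, was read by 2 probe sets that did not move together (r = 0.30 over 15 arrays). On the dimmer, 1388011_a_at, the sham arrays at 3 d gave 2709, 2383 and 3253 and the 3VO arrays 1569, 1483 and 1502. The 3VO arrays were all below the sham arrays, by -0.86 (SE 0.23, limma adjusted p = 0.704), the smallest unadjusted p of any member in that comparison and rank 49 of all probe sets. The difference was -0.87 without sham array 1 and -0.60 with the macrophage list as a covariate, and this probe set correlated with that list at r = -0.74. Intact arrays gave 2187, 2480 and 1888, also all above the 3VO arrays at 3 d, by a difference of -0.51 (adjusted p = 0.372), or -0.20 with the macrophage list. At 24 h the sham arrays gave 1482, 1780 and 2434 and the 3VO arrays 1993, 1518 and 1503, which overlapped.

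The brighter Tgfb2 probe set, 1387172_a_at, gave no separated comparison. Its signals were 2069, 4439 and 2176 on intact arrays, 1800, 2710 and 1288 on sham and 2962, 2678 and 2556 on 3VO arrays at 24 h. At 3 d they were 1529, 2494 and 4919 after sham surgery and 559, 2320 and 2542 after 3VO. The highest value of the intact group and that of the sham group at 3 d came from the 2 arrays richest in choroid plexus markers. Over the 15 arrays this probe set correlated with the choroid plexus list at r = 0.24 (rho = 0.064). Without the 2 arrays farthest from the median of the list it was r = -0.31. The part of choroid plexus RNA in these values was not tested.

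**Figure D3:**
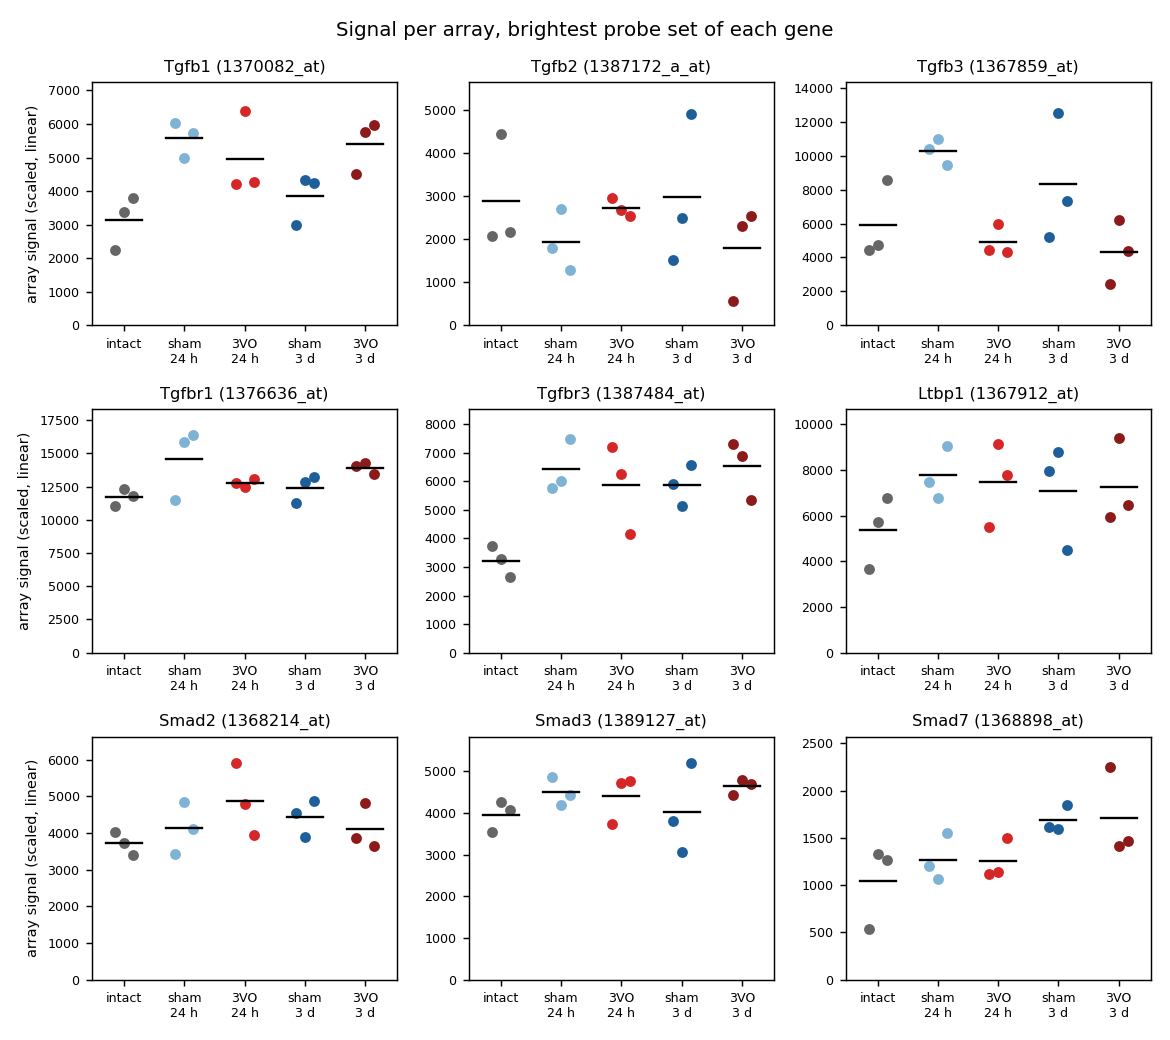
Linear array signal of the brightest probe set of each of the 9 genes on each of the 15 arrays (points), with the group mean as a bar and every axis starting at 0. Tgfbr3 has all 12 arrays of operated rats above the 3 intact arrays, and Tgfb3 has all 3 sham arrays at 24 h above all 3VO arrays at 24 h.

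Ltbp1, which anchors latent TGF-beta to the matrix, had signals of 3641, 5711 and 6750 on intact arrays and of 7492, 6751 and 9048 on sham arrays at 24 h. The lowest sham array, at 6751, was level with the highest intact array at 6750, and the difference was 0.57 (SE 0.28, adjusted p = 0.365). It was 0.31 without intact array 1 and 0.048 with the neuron list mean as a covariate. The 3VO arrays gave 5511, 9118 and 7783 at 24 h and 5926, 9391 and 6475 at 3 d, and the sham arrays at 3 d 7955, 8778 and 4478. All these groups overlapped each other.

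Tgfbr3, the coreceptor betaglycan, had the lowest F test p of the members (adjusted p = 0.158). On its brighter probe set, 1387484_at, the intact arrays gave 3726, 3293 and 2654. Sham arrays gave 5786, 6000 and 7504 at 24 h and 5903, 5124 and 6584 at 3 d, and 3VO arrays gave 7222, 6250 and 4141 at 24 h and 7313, 6904 and 5362 at 3 d. All 12 arrays of operated rats were above all 3 intact arrays. The differences from intact were 0.996 for sham at 24 h (SE 0.21, limma adjusted p = 0.121), 0.87 for sham at 3 d (adjusted p = 0.143), 0.84 for 3VO at 24 h (adjusted p = 0.15) and 1.01 for 3VO at 3 d (adjusted p = 0.0736). The last passed without 3VO array 3 at 24 h (adjusted p = 0.0381), and the first passed without intact array 3 (adjusted p = 0.0414). The 3VO array at 24 h lies outside the comparison of 3VO at 3 d with intact. That difference thus stayed at 1.01, and only the estimate of spread changed. The number of all probe sets that passed in that setting is not given here. Without intact array 3 many other probe sets passed too, as given above. Between 3VO and sham the arrays overlapped at both times. The order of group means from high to low was 3VO 3 d, sham 24 h, 3VO 24 h, sham 3 d and intact, and of these neighbours only sham 3 d and intact were apart by more than their SDs. The signal correlated with the smooth muscle list at r = 0.041, with the macrophage list at r = 0.38, with the endothelial list at r = 0.37 and with the neuron list at r = -0.48. With the neuron list mean as a covariate the 4 differences from intact, in the same order, were 0.97, 0.85, 0.83 and 1.0, none of which passed. With the array number as a covariate that for 3VO at 24 h was 0.49, those for sham were 0.71 at 24 h and 0.60 at 3 d, and that for 3VO at 3 d was 0.81. Without sham array 1 at 3 d the difference of that group was 0.86. The genes most like it were Il6st (r = 0.92), the signalling receptor chain of the interleukin 6 family, and Stat3 (r = 0.92), the transcription factor that chain activates.

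The dimmer Tgfbr3 probe set, 1369219_at, did not repeat this pattern (r = 0.21 with the brighter). Its intact arrays gave 740, 824 and 1240, its sham arrays at 24 h 1248, 1755 and 2624, and its 3VO arrays at 24 h 1256, 1730 and 467. At 3 d the sham arrays gave 492, 2062 and 1168 and the 3VO arrays 1186, 337 and 990. Only the sham arrays at 24 h were all above the intact arrays, by 0.96 (SE 0.59, adjusted p = 0.474), and the other groups overlapped the intact values. The mean after 3VO at 3 d was below intact (-0.30, adjusted p = 0.865).

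The starts of Tgfb1 and Tgfbr3 are shown because these are the ligand and the coreceptor whose brightest probe sets were higher in most groups of operated rats. All 9 genes matched the RefSeq promoter table of the rat assembly GRCr8 by symbol. Each run is the 250 bases before the annotated start, 5′ to 3′ on the strand of the gene, at chr1:90324062-90324311 for Tgfb1 and chr14:2634044-2634293 for Tgfbr3, both on the plus strand. Capitals mark a match to a searched motif.
Tgfb1: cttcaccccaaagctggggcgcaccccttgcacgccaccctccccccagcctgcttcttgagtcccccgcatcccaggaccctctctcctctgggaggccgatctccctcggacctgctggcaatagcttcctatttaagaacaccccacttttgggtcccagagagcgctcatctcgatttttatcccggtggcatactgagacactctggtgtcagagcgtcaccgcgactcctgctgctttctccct
Tgfbr3: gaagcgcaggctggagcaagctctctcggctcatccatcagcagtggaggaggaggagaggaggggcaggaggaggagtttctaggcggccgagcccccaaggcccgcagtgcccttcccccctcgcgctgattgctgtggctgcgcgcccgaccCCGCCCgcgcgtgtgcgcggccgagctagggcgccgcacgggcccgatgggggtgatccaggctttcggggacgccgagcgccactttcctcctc
Both strands were searched for TATAAA, the GC box GGGCGG, the palindromic Smad element GTCTAGAC and the STAT site TTCCNGGAA. The only match was 1 GC box in the Tgfbr3 window, on the minus strand 95 bases before the start. Of 33465 promoter windows of this length, 30.5% hold the GC box, 12.9% TATAAA, 1.07% the STAT site and 0.173% the Smad element. The share of G and C was 60% for Tgfb1 and 71.2% for Tgfbr3, above the median of 51.2% over these windows. A window without these letters says nothing on whether the factors bind elsewhere.

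Tgfbr1, the type I receptor kinase also called ALK5, was read by 2 probe sets with r = 0.51 between them. On 1369504_at the intact arrays gave 2203, 1593 and 1912. Sham arrays gave 2166, 2810 and 3699 at 24 h and 2948, 2182 and 3717 at 3 d, and 3VO arrays gave 3683, 2876 and 2490 at 24 h and 2997, 2985 and 2764 at 3 d. Both 3VO groups were wholly above intact, by 0.65 (SE 0.25, adjusted p = 0.39) and 0.62 (adjusted p = 0.314), and both sham groups overlapped intact in 1 array, with differences of 0.58 (adjusted p = 0.289) and 0.61 (adjusted p = 0.29). The first was 0.38 without sham array 3 at 24 h. The second was 0.59 without sham array 1 at 3 d and 0.30 without the 2 arrays richest in choroid plexus markers, a setting added after the data were seen. This probe set followed Tgfbr3 1387484_at over the 15 arrays (r = 0.85, rho = 0.90, and r = 0.71 after group means were removed).

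On the brighter Tgfbr1 probe set, 1376636_at, the spread was small. Intact arrays gave 11068, 12336 and 11821, and 3VO arrays gave 12755, 12501 and 13095 at 24 h and 14075, 14303 and 13418 at 3 d. Both 3VO groups were wholly above intact, by 0.12 (SE 0.13, adjusted p = 0.801) and 0.25 (adjusted p = 0.437). The first was 0.082 without intact array 1 and 0.31 with the macrophage list mean as a covariate. Sham arrays gave 11492, 15826 and 16371 at 24 h and 11231, 12849 and 13182 at 3 d. Both sham groups overlapped intact, with differences of 0.29 (adjusted p = 0.303) and 0.079 (adjusted p = 0.813). The 3VO arrays at 3 d lay above the sham arrays at 3 d by 0.17 (adjusted p = 0.999), or by 0.098 without sham array 1.

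Smad2 and Smad3, the Smads that Tgfbr1 phosphorylates, differed little between groups. The Smad2 signal was 4028, 3728 and 3410 on intact arrays, 3428, 4851 and 4106 on sham and 5897, 4799 and 3934 on 3VO arrays at 24 h, and 4541, 3892 and 4858 on sham and 3860, 4821 and 3647 on 3VO arrays at 3 d. Every pair of these groups that was compared overlapped. The brighter Smad3 probe set, 1389127_at, gave 3529, 4247 and 4059 on intact arrays and 4422, 4788 and 4684 on 3VO arrays at 3 d, which lay wholly above by 0.23 (SE 0.18, adjusted p = 0.614), or by 0.12 with the macrophage list mean as a covariate. Its other groups overlapped those they were compared with, and sham arrays at 3 d ranged from 3056 to 5187. The dimmer Smad3 probe set, 1369528_at, ranged from 521 to 1646 on intact arrays alone and overlapped in every comparison. Since these proteins act by phosphorylation, which arrays do not read, RNA levels do not measure pathway activity.

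Smad7, the inhibitor, was read by 3 probe sets with r between 0.15 and 0.25 among them. On the brightest, 1368898_at, intact arrays gave 536, 1331 and 1266, sham arrays at 3 d 1620, 1597 and 1850, and 3VO arrays at 3 d 2251, 1412 and 1466. Both groups at 3 d were wholly above intact, by 0.79 (SE 0.34, adjusted p = 0.32) and 0.78 (adjusted p = 0.358), and without intact array 1, the lowest, these differences were 0.37 and 0.36. Without sham array 1 that of the sham group was 0.82. The 24 h groups, at 1064 to 1549 after sham surgery and 1114 to 1504 after 3VO, overlapped intact. On 1368897_at the intact arrays ranged from 617 to 992, and both groups at 3 d were again wholly above, by 0.59 (adjusted p = 0.405, and 0.60 without sham array 1) and 0.45 (adjusted p = 0.561). The latter was 0.28 without intact array 2. On 1368896_at every comparison overlapped, and 1 sham array at 3 d stood at 3052 against 1020 and 1484 on the other 2. The genes most like 1368898_at over the arrays were Gc (r = 0.91) and Fgb (r = 0.90), which encode plasma proteins made mainly in liver.

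**Figure D4:**
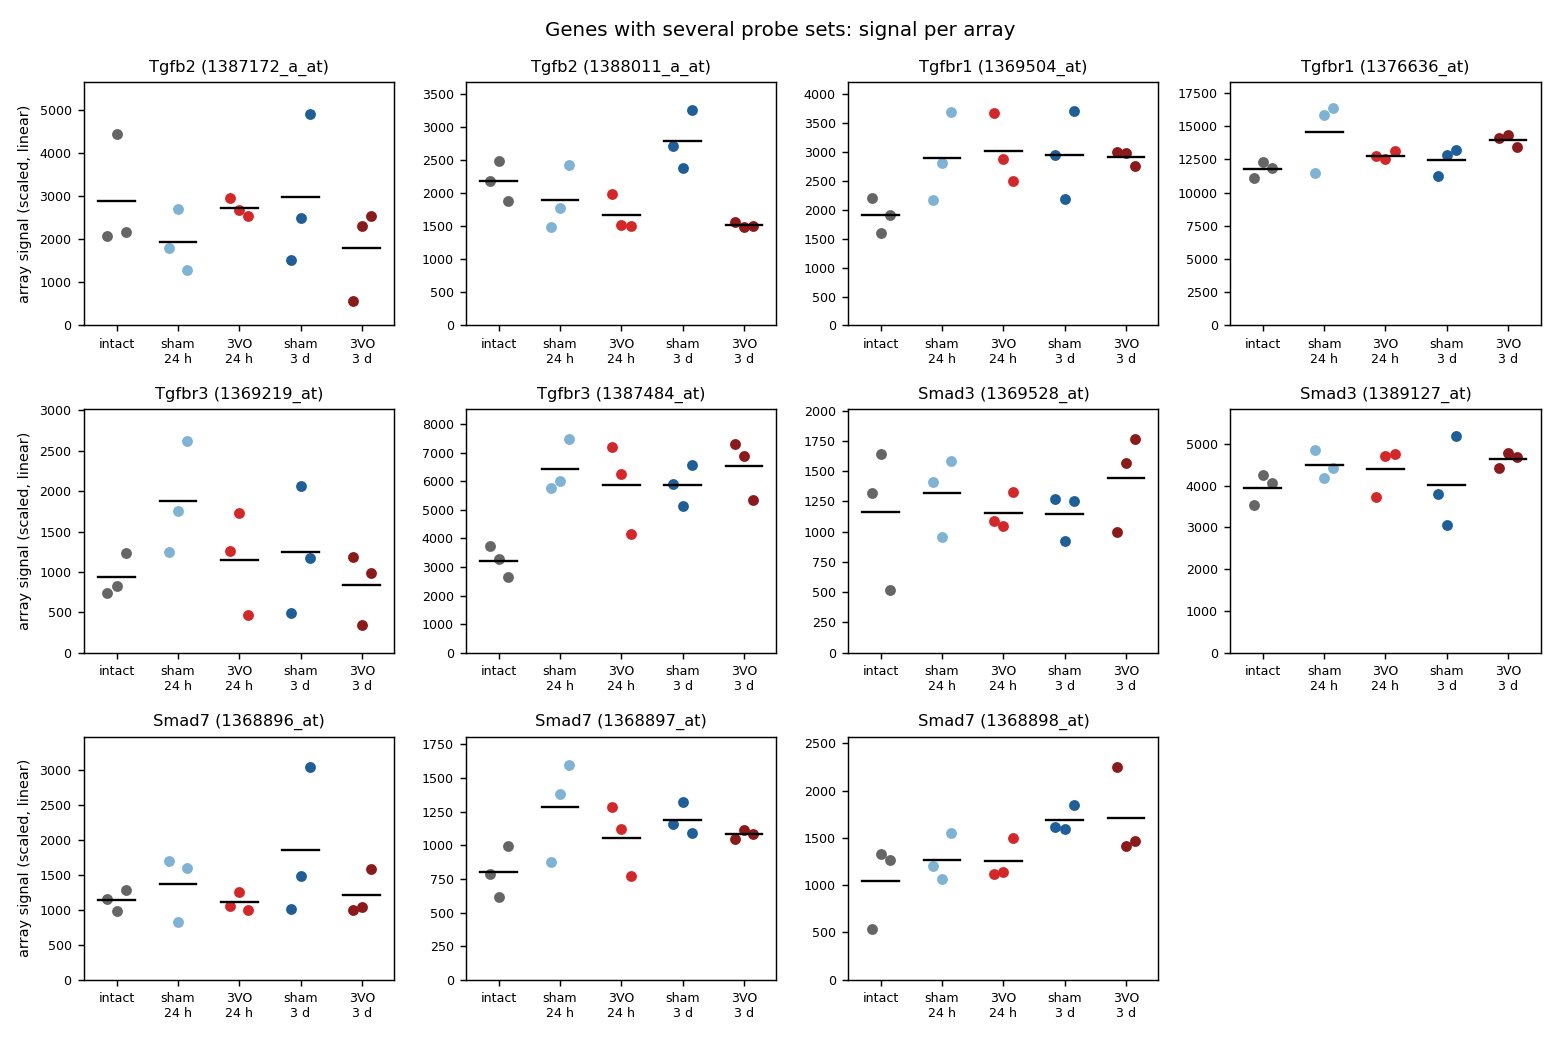
Linear signal per array for the 11 probe sets of the 5 genes with more than 1, with group means as bars and axes starting at 0. The 2 Tgfbr3 probe sets differ in pattern, since only 1387484_at has all arrays of operated rats above intact, and the 2 Tgfb2 probe sets differ at 3 d.

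The probe set most like each of the other members was, by Pearson's r over the 15 arrays, Ptpn18 for Tgfb1 (r = 0.88), Bckdhb for Tgfb2 1387172_a_at (r = 0.91), Clec4f for Tgfbr1 1376636_at (r = 0.86), Parp9 for Ltbp1 (r = 0.87), Acr for Smad2 (r = 0.80) and Cenpt for Smad3 1389127_at (r = 0.86). Each is the highest value among all probe sets with a single gene symbol and is given as a description. In all, 105 correlations between member probe sets and 135 between members and marker lists were computed.

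Of 83 other genes of the pathway in 6 roles, 72 were measured, and none passed in any of the 7 comparisons. Between 3VO and sham, 28 were higher and 44 lower at 24 h, where 47.3% of all probe sets were higher. An unadjusted p under 0.05 came from 8 of them, beside 6.97% of all probe sets. At 3 d 27 were higher and 45 lower, where 48.5% of all probe sets were higher, and 3 had an unadjusted p under 0.05, beside 4.73%. Against intact, 54 of 72 were higher after sham surgery at 24 h, 58 of 72 at 3 d, 47 of 72 after 3VO at 24 h and 48 of 72 at 3 d. Over all probe sets the shares were smaller, at 54.2%, 58.8%, 50.6% and 57%. These comparisons share the intact arrays and are not independent of each other. The medians of these 72 against intact were 0.35, 0.33, 0.15 and 0.24 in that order, beside 0.039, 0.084, 0.0048 and 0.067 over all probe sets.

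Among genes of latency and activation (9 measured), Ltbp2, a relative of Ltbp1 in elastic fibres that does not bind latent TGF-beta, was separated between 3VO and sham at both times. Its 3VO arrays gave 3076, 2446 and 2402 at 24 h and 2470, 3600 and 2612 at 3 d, against 1711, 1646 and 711 and then 1945, 517 and 1521 after sham surgery and 376, 522 and 1073 on intact arrays. The differences were 1.05 at 24 h (SE 0.49, adjusted p = 0.713) and 1.29 at 3 d (adjusted p = 0.999). Without sham array 3 at 24 h the first was 0.64, and the second was 0.73 without sham array 2 and 1.66 without sham array 1 at 3 d. With the macrophage list mean as a covariate they were 0.62 and 0.75. Against intact the 3VO groups were higher by 2.11 (adjusted p = 0.122) and 2.23 (adjusted p = 0.0903). Fbn1, the microfibril protein fibrillin 1 that holds latent complexes, was higher than intact by 0.93 after 3VO at 3 d (adjusted p = 0.0902). Mmp14, a membrane protease that can release TGF-beta, was lower after 3VO than after sham surgery at 24 h by -0.41 (adjusted p = 0.621, and -0.24 with the macrophage list mean as a covariate) and higher than intact by 0.71 after 3VO at 3 d (adjusted p = 0.0979).

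Of 10 receptors of the wider family, the bone morphogenetic protein receptor Acvr1 was separated downward between 3VO and sham at both times, by -0.30 (adjusted p = 0.779) and -0.39 (adjusted p = 0.999, and -0.46 without sham array 1 at 3 d). The pseudoreceptor Bambi, which blocks signalling by type I receptors, overlapped at both times, with differences of -0.13 (adjusted p = 0.988) and 0.65 (adjusted p = 0.999). The endothelial receptor Acvrl1 overlapped between 3VO and sham and was higher than intact by 0.61 after sham surgery at 24 h (adjusted p = 0.172). Of 12 other ligands, Bmp2 was separated downward after 3VO at 24 h by -0.43 (adjusted p = 0.799) and Bmp3 upward by 0.89 (adjusted p = 0.82). The Bmp3 difference was 0.45 without sham array 3 and 0.26 with the neuron list mean as a covariate, and that of Bmp2 was -0.84 with the smooth muscle list mean. Inha and Inhbb overlapped between 3VO and sham at both times. Among 13 Smads and regulators, the ubiquitin ligase Smurf1 and the feedback inhibitor Pmepa1 were separated downward at 24 h, by -0.41 (adjusted p = 0.788) and -0.31 (adjusted p = 0.849), while Smad5 and Smad9 overlapped. The Smurf1 difference was -0.14 with the neuron list mean as a covariate, and that of Pmepa1 was -0.052 with the smooth muscle list mean and -0.14 with the macrophage list mean. Among 9 extracellular inhibitors, none was separated between 3VO and sham. At 24 h the differences were -0.31 for the proteoglycan Fmod (adjusted p = 0.794) and 0.50 for Fst, the activin antagonist follistatin (adjusted p = 0.811), and at 3 d -0.81 for Grem1, an antagonist of bone morphogenetic proteins (adjusted p = 0.999). The collagen-binding proteoglycan Lum was higher than intact by 1.20 after 3VO at 3 d (adjusted p = 0.113), or by 0.48 with the macrophage list mean as a covariate.

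Of 19 measured transcriptional targets, 8 were higher and 11 lower after 3VO than after sham surgery at 24 h, and 10 were separated in either direction, where 6.42% of all probe sets were separated upward and 9% downward. Those at the front were Acta2, smooth muscle actin (-1.04, SE 0.32, adjusted p = 0.505), and Col1a1, a fibrillar collagen chain (-0.52, SE 0.17, adjusted p = 0.517). The Col1a1 arrays gave 61348, 74013 and 80352 after sham surgery and 51749, 59970 and 39524 after 3VO, against 33128, 40678 and 42356 on intact arrays. Both operated groups at 24 h were thus above or beside intact, with 0.89 for sham (adjusted p = 0.116) and 0.37 for 3VO (adjusted p = 0.489, and 0.23 without 3VO array 2). The list shares Acta2, Tagln and Cnn1 with the smooth muscle markers, which were lower after 3VO as given for Tgfb3. With the smooth muscle list as a covariate the Acta2 difference at 24 h was -0.21 and that of Col1a1 -0.29. At 3 d, 19 of 19 targets were higher after sham surgery than in intact arteries, and 14 of 19 were after 3VO, beside 58.8% and 57% of all probe sets. In the sham comparison all 8 smooth muscle, 6 endothelial, 5 erythroid and 4 leptomeningeal markers and 6 of 8 macrophage markers were higher too. All 10 neuron markers and 5 of 7 astrocyte markers were lower. The part of these lists in the target counts was not tested. Postn, the matricellular protein periostin, stood out by size: its 3VO arrays at 3 d gave 931, 6902 and 10348 against 437, 224 and 2219 after sham surgery. The groups overlapped in 1 pair of arrays, and the difference of 2.71 (SE 0.98, adjusted p = 0.987) was 3.76 without 3VO array 1, 2.48 without sham array 1 and 1.61 with the macrophage list mean as a covariate.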

How the data were processed

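RNA of pooled arteries was hybridised to 15 Affymetrix Rat230A arrays. The deposited values are a linear intensity per probe set that the authors computed in GCOS (version not given in the sources used here), per the submitters' processing notes. A scaling target of 500 is stated, whereas the trimmed mean (2% at each end) was 5000 on every array. No further scaling was applied.

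Values entered as log2(signal + 16). A probe set was tested where 3 arrays or more reached 100, which held for 15737 of 15923, with 57 controls left out. The platform table gave 1 symbol to 12783 probe sets, several to 312 and none to 2771. No genome build is named for the probe sets, so they have no coordinates here. limma 3.58.1 in R 4.3.3 fitted 5 group means to all 15 arrays (10 residual and 4.83 prior degrees of freedom, eBayes with a variance trend). Tests were 2-sided, over 7 contrasts and an F test, with Benjamini-Hochberg adjustment over all probe sets tested and a threshold of 0.05. The fit was tested on simulated data. With 3 arrays a group, the number of arrays limits the precision. Figures were drawn with matplotlib 3.10.9.

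All members are reported. In each of 6 roles of the pathway, the 2 genes with the smallest unadjusted p between 3VO and sham at each time are named, by the brightest probe set of a gene. Likeness names the 2 other genes with the highest r over 15 arrays. Marker lists were averaged on the log2 scale over the brightest probe set of each gene. Members, lists and tests were chosen with earlier results of these data known. Replicate numbers follow accession order. The alternatives tried were other pseudocounts, signal filters, scalings, variance models and covariates, the arrays of a contrast alone, and leaving out arrays. Of these, the smooth muscle and macrophage list covariates were added after the data were seen. So was leaving out the 2 arrays richest in choroid plexus markers.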

Additional observations from a re-analysis of the deposited data

How the results depend on the processing

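The 29 member differences that had an unadjusted p under 0.05 or separated groups kept their direction in all 406 values under other settings and in all 435 values with 1 array left out. Much of this was fixed beforehand, since the differences were picked for their size or separation. Separated groups cannot change order when 1 array is left out, and an array outside a comparison leaves its difference unchanged. Signal filters and a fit without the variance trend do not change a difference either. The count of members past the threshold, 0 in each comparison, was 1 in 3 cases under other settings. These were 1 (Tgfb3) between 3VO and sham at 24 h with the 6 arrays of the contrast alone, and 1 (Tgfb1) between 3VO and intact at 24 h and 1 at 3 d with the smooth muscle list mean as a covariate, a setting added after the data were seen. With 1 array left out the count ranged from 0 to 2 between sham at 24 h and intact, reaching 2 without intact array 3, and from 0 to 1 between 3VO at 3 d and intact, reaching 1 without 3VO array 3 at 24 h. The last of these arrays lies outside its comparison, so only the estimate of spread changed there. With 1 array left out the count stayed at 0 in the other comparisons. Among members, the Tgfb3 difference at 24 h ran from -1.48 with the macrophage list mean as a covariate to -0.21 with the smooth muscle list mean. Of the 41 differences of other pathway genes, 2 turned. Bmp2 between sham at 24 h and intact was -0.066 with the array number as a covariate against 0.35, and Cnn1, itself a smooth muscle marker, was 0.22 between 3VO and sham at 24 h with the smooth muscle list mean against -0.59. The cause was not tested for Bmp2. Over all probe sets the number past the threshold without intact array 3 was 184 between sham at 3 d and intact, 227 between 3VO at 24 h and intact and 258 between 3VO at 3 d and intact, against 0, 29 and 35 on all arrays. With the macrophage list mean it was 206 between 3VO and sham at 24 h, against 8. No paired analysis was possible because the labels give no replicate numbers that groups share. The 3 arrays a group limit what can be told apart.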
